A study of Mus musculus with 2 samples.

Results

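The 10 genes described here encode the route by which leukaemia inhibitory factor (LIF) acts on a mouse embryonic stem cell. They are the ligand gene Lif, the receptor genes Lifr and Il6st, the Janus kinase genes Jak1, Jak2 and Tyk2, the transcription factor gene Stat3, and the feedback and target genes Socs3, Pim1 and Pim3. They were chosen by symbol, and all 10 were among the 15127 protein-coding genes in the deposited table. The values come from poly(A) RNA of pSM44 cells, a female line from an F1 cross between 129 and castaneus mice. Its Xist gene on the 129 allele is under a tetracycline-inducible promoter. All cells had 24 h of doxycycline at 2 μg/mL and grew in serum-free 2i/LIF medium, which supplies LIF together with a pair of kinase inhibitors. The labels give 2 libraries in this single group. The table has 1 column of counts for the group, so each gene has 1 value and no replicate error, and no test between conditions could be made. No untreated cells and no cells without LIF were analysed here, so no value below measures a response to doxycycline or to LIF.

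LIF binds the receptor chain Lifr, which then pairs with gp130, the shared signalling chain encoded by Il6st. Janus kinases attached to both chains phosphorylate the receptor tails, Stat3 docks there, is phosphorylated in turn, dimerises and moves to the nucleus. In mouse embryonic stem cells this route maintains self-renewal. Among the genes that Stat3 activates are Socs3, whose protein binds gp130 and Janus kinases and dampens the signal, and the serine/threonine kinase genes Pim1 and Pim3.

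A stretch of the RefSeq promoter window of Socs3 is shown. Socs3 was the only gene of the 10 with a match to the general Stat motif TTCNNNGAA in such windows. The windows, from RefSeq on GRCm38.p6, run from 250 bases before to 50 bases after each annotated transcript start, and 12 of them matched the 10 genes. The motif reads the same on both strands. The 250 bases upstream of the RefSeq start of Socs3 are at chr11:117969367-117969616 on the minus strand, with the match in capitals. GENCODE M21 begins the gene further upstream, at 117970047, so this stretch lies inside the gene span of that annotation. Bases upstream of that GENCODE start were not searched, so the motif search does not cover them.
Socs3: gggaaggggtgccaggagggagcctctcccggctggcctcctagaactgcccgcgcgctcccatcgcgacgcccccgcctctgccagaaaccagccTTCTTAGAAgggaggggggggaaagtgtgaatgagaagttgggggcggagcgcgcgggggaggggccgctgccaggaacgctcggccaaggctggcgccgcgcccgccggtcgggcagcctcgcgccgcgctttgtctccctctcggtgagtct
The first base of the match lay 154 bases upstream of the RefSeq start. The tighter forms TTCCNGGAA and TTCCNNGAA, which are special cases of the general motif and were searched on both strands, were in none of the 12 windows. Over all 27025 genes with a window, 9.55% held TTCNNNGAA, 1.35% held TTCCNGGAA and 5.60% held TTCCNNGAA. A match is a feature of the letters in this window, and no binding data were analysed here.

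Per kb of exon, transcripts of the feedback and target genes were the most abundant of the 10 and those of the ligand, of Lifr, of Jak2 and of Tyk2 the least. For Socs3 this place depended on the scale, since by CPM it was below Jak1, Stat3 and Il6st, and per base of the longest coding transcript it was level with Jak1. The 3 feedback and target genes held 56.3% of the 9235 counts of the 10 genes, while their exons made up 13.7% of the exonic length. Because raw counts grow with length, genes were compared as CPM per kb of exon, where CPM is the count scaled by the table total of 10017978 to counts per 1000000 and exon length is the union of all annotated exons in GENCODE M21. Whether intronic reads were counted too is not stated, so the order of the 10 genes and the ratios of pairs were also read under 4 other lengths, among them gene span. On this scale the 10 genes ran from 0.174 for Tyk2 to 98.1 for Pim3, with a median of 10.01 CPM per kb against 3.78 for all 15060 genes with a length. All 10 genes were at CPM 1 or more, where 80.1% of all listed genes and 54.9% of the 22028 annotated protein-coding genes also were. At CPM 10 or more there were 9 of the 10, against 58.9% of all listed genes, and at CPM 100 or more there were 4, against 15.5%.

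**Figure D1:**
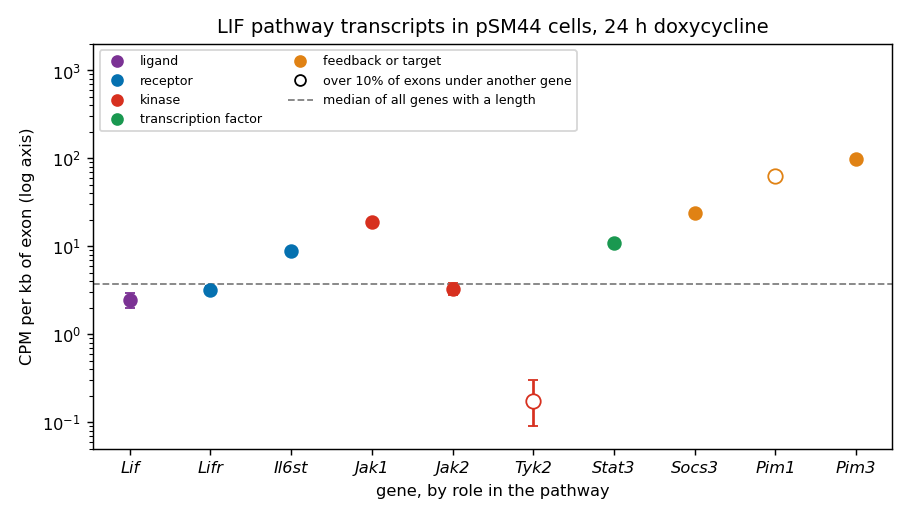
CPM per kb of exon (log axis) of each gene, coloured by role, with exact Poisson 95% intervals that cover counting error only. Open circles mark Pim1 and Tyk2, with over 10% of exonic length under another annotated gene, and the dashed line is the median of all genes with a length, 3.78. The feedback and target genes sit between 24.2 and 98.1, above every other gene of the pathway.

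Lif, the ligand gene (chr11:4257557-4272514, plus strand), had 106 counts, or 10.6 CPM (95% Poisson interval 8.66 to 12.8). Its level was 2.43 CPM per kb of exon, at percentile 42.6 of all genes with a length. Lif transcript was thus present in cells that also received the cytokine from the medium. Osm, which encodes the related cytokine oncostatin M, ends 16.5 kb before Lif on the same strand and had 198 counts. Per kb of exon Lif was at 2.43 CPM and Osm at 8.70, a ratio of 0.280 (95% interval 0.219 to 0.356, from the exact binomial interval of the counts). Osm was the higher of these neighbours under each of the 5 gene lengths tried, with Lif over Osm between 0.165 and 0.694.

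Of 8 other ligands of the gp130 family, 4 were listed and 2 reached CPM 1, against 54.9% of annotated protein-coding genes. Osm was followed by the cardiotrophin gene Ctf1 with 25 counts and by Il11 with 6, and the cytokine subunit gene Ebi3 was lowest with 2. Il6, Cntf, Clcf1 and Il27 were not listed. Exons of Cntf lay wholly under another annotated gene and those of Clcf1 to 96.9%, whereas no other gene covered Il6. The median of the listed ligands was 0.828 CPM per kb, against 3.78 for all genes.

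Lifr, the ligand-binding chain (chr15:7090614-7197489, plus strand), had 342 counts, or 34.1 CPM (30.6 to 38.0). Il6st, the shared gp130 chain (chr13:112464070-112510086, plus strand), had 997 counts, or 99.5 CPM (93.4 to 105.9). Both genes have about the same exonic length, 10.8 kb for Lifr and 11.1 kb for Il6st. Il6st was at 8.97 CPM per kb and Lifr at 3.17, a ratio of 2.83 (2.50 to 3.21). The shared chain had the more abundant transcript, and the ratio stayed between 2.83 and 6.77 under the 5 lengths.

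Among listed genes, the other receptor chains that partner gp130 or resemble it were low apart from Il31ra. Of 7 such genes, 6 reached CPM 1 and 2 reached CPM 10, against 80.1% and 58.9% of all listed genes. Their median was 1.18 CPM per kb against 3.78 for all genes. With every unlisted annotated gene at 0, the log2 of their median CPM over that of all genes turned to 0.51, against -2.31 among listed genes. Il31ra, a chain of the interleukin 31 receptor, had 586 counts and the interleukin 6 receptor gene Il6ra had 112. Osmr, the chain that pairs with gp130 in the oncostatin M receptor, had 2 counts, an estimate of 0.0165 CPM per kb (0.00200 to 0.0595). Osmr is the nearest protein-coding gene upstream of Lifr, 215.6 kb away and on the other strand. Lifr exceeded it 192-fold per kb of exon, with a counting interval of 52.8 to 1594 that is wide because of the 2 Osmr counts. The ratio was 97.3 per base of the longest coding transcript and 98.2 per base of gene span. The ligand gene Osm, at 8.70 CPM per kb, was above Lif and above the gene of its own receptor chain.

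Il31ra lies next to Il6st, with 9.81 kb between the ends of these genes and no protein-coding gene between them. Il6st was at 8.97 CPM per kb and Il31ra at 10.3, a ratio of 0.870 (0.784 to 0.965). Which of them was higher depended on the length used, since Il6st exceeded Il31ra 1.33-fold per base of coding sequence and 2.75-fold per base of gene span. Il31ra also had a TTCNNNGAA match in a form that fits TTCCNGGAA, 191 bases upstream of the RefSeq transcript start. That start lies inside the longer Il31ra gene of GENCODE M21, so the match is within its annotated span. The stretch at chr13:112580829-112580868 on the minus strand is shown with the match in capitals. Beside it are 30 bases around the RefSeq start of Cish on the plus strand at chr9:107296654-107296683. GENCODE M21 begins Cish at 107296026, so these bases too are within the annotated span of their gene. Cish encodes a feedback inhibitor related to Socs3 and is known as a target of Stat5.
Il31ra: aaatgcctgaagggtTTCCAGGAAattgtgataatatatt
Cish: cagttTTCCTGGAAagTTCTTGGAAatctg
The Cish stretch held a pair of matches, beginning at the RefSeq start and 11 bases after it, and Cish had 7 counts. The Il31ra stretch held 1 match and Il31ra had 586 counts, Socs3 with 1 match had 701, and Gab1, also with a match, had 1979. Exons of Cish lay to 40.9% under another gene. Windows matched 54 of the 71 genes of the route and its pathway lists, and of these 4 had a match, namely Gab1, Cish, Il31ra and Socs3. That is 7.41%, near the 9.55% of all genes.

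Jak1 stood above Jak2 and Tyk2. Jak1, the Janus kinase with the main role in gp130 signalling (chr4:101152367-101265282, minus strand), had 1357 counts, or 135 CPM (128 to 143). Jak2, which also associates with gp130 (chr19:29251828-29313080, plus strand), had 165 counts, or 16.5 CPM (14.1 to 19.2). Per kb of exon Jak1 was at 18.7 CPM and Jak2 at 3.27, a ratio of 5.72 (4.87 to 6.77). That order held under all 5 lengths, with ratios from 4.46 to 8.43.

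Tyk2, the remaining kinase known to bind gp130 (chr9:21104068-21131243, minus strand), had 12 counts, or 1.20 CPM (0.619 to 2.09). It was the lowest of the 10 genes at 0.174 CPM per kb (0.0902 to 0.305), and Jak1 exceeded it 107-fold (61.3 to 208). The span of the antisense gene 1700084C06Rik (chr9:21091755-21128393, plus strand) covered 94.3% of the exonic length of Tyk2, while the exons of that gene covered 8.07%. All annotated genes were also grouped by coverage under the span of another gene, whatever the exons of that gene. Of 1802 annotated genes with at least 0.9 of their exonic length under another gene, 5.99% reached CPM 1 (exact binomial 95% interval 4.94 to 7.19), against 57.7% of 16838 genes with at most 0.1 (56.97 to 58.5). Over the Tyk2 exonic bases that no other gene covers, these 12 counts would give 3.07 CPM per kb, and Jak1 would exceed Tyk2 6.11-fold (3.48 to 11.8). The groups of covered and uncovered genes may differ in other ways, and the part of this overlap in the Tyk2 count was not tested.

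Jak3, the Janus kinase best known for signalling through the common gamma chain in lymphocytes, was close to Jak1 in level per kb of exon. It had 1204 counts, and 8.02% of the 90-base windows of its longest coding transcript also occur in transcripts of Insl3, a gene that overlaps it. Jak1 was at 18.7 CPM per kb and Jak3 at 22.5, a ratio of 0.835 (0.772 to 0.903). The ratio was below 1 under every length but coding sequence, down to 0.143 per base of gene span. Per base of coding sequence it was 1.08, with an interval of 0.994 to 1.16 that holds 1, so the order was not settled there. With Jak2 at 3.27 and Tyk2 at 0.174 CPM per kb, Jak1 and Jak3 were the higher pair of the Janus kinase genes under each length.

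Stat3, the transcription factor at the end of the route (chr11:100885098-100939540, minus strand), had 1054 counts, or 105 CPM (99.0 to 112). Its level of 11.04 CPM per kb was at percentile 70.9 of all genes with a length. Stat5a and Stat5b, which encode related factors activated by other cytokines, lie beside it, and the Stat3 and Stat5a exons overlap by 72 bases at their ends. Stat3 exceeded Stat5a, with 88 counts, 8.97-fold per kb (7.21 to 11.3). It exceeded Stat5b, with 190 counts, 3.23-fold (2.76 to 3.78). Stat3 was the higher gene of both pairs under each length, although Stat5a and Stat5b share some sequence, which filled 8.002% of the 90-base windows in Stat5a and 5.93% in Stat5b.

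Over the list of 7 other Janus kinase and Stat genes, 6 reached CPM 1, as did 80.1% of all listed genes. The median was 3.42 CPM per kb, close to that of all genes. After Jak3 the highest counts were 370 for Stat6, which acts downstream of interleukin 4, and 344 for Stat2, which acts in the interferon response. Stat4 was lowest with 5 counts, with 50.03% of its exonic length under another gene. The part of this overlap in the Stat4 count was not tested.

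Socs3, the feedback inhibitor (chr11:117966079-117970047, minus strand), had 701 counts, or 70.0 CPM (64.9 to 75.4). The gene is short, with a longest coding transcript of 2.55 kb in 2 exons, whereas those of Lifr, Il6st, Stat3, Jak1, Jak2 and Tyk2 have 17 to 25 exons. Its level of 24.2 CPM per kb was at percentile 84.3. Socs3 exceeded Stat3, its activator, 2.19-fold per kb of exon (1.99 to 2.41). The ratio was 1.57 per base of the longest coding transcript and 9.12 per base of gene span.

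The other negative regulators, 16 genes of the Socs, Pias, phosphatase and cullin ligase groups, were nearly all present. At CPM 1 or more there were 15 of them, and 80.1% of all listed genes. The median of the 16 was 8.10 CPM per kb, against 3.78 for all genes. Pias2, of a family of SUMO ligases named as inhibitors of activated Stats, had 2177 counts. Cul5, the cullin that works with Socs proteins, had 1113 counts and Pias4 had 1102, and the lowest was Cish. Among the Socs genes of the list, Socs1 was the highest per kb with 7.04 CPM, and Socs3 at 24.2 CPM per kb stood above all 6 of them, which ran down to 2.10 for Socs5. This order is per kb of union exon length, and the other lengths were not tried for it. By CPM, Socs2 was at 59.2, Socs7 at 38.5, Socs6 at 35.7 and Socs1 at 20.5, against 70.0 for Socs3. These Socs values were chosen for naming after they were seen. Stat3 itself was at 11.04 CPM per kb, and Pias3, named for its binding to Stat3, was at 11.5.

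Pim3 and Pim1 were the highest of the 10 genes. Pim3 (chr15:88862186-88865726, plus strand) had 2385 counts, or 238 CPM (229 to 248), and stood at percentile 96.6 with 98.1 CPM per kb. Pim1 (chr17:29490753-29496112, plus strand) had 2116 counts, or 211 CPM (202 to 220), and stood at percentile 94.3 with 62.8 CPM per kb. Pim3 exceeded Pim1 1.56-fold per kb of exon (1.47 to 1.66). The span of the antisense gene Gm26885 (chr17:29446919-29491925, minus strand) covered 27.1% of the exonic length of Pim1, while the exons of that gene covered 14.5%. With the full counts divided by exonic length outside other genes, the ratio was 1.14 (1.07 to 1.21). Pim2, the X-linked member of this kinase family, had 255 counts and was lower, at 9.11 CPM per kb. Both alleles are pooled in this value.

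Of the 9 steps in the order of levels, 8 were larger than the counting error. These steps are per kb of union exon length. From the top the order was Pim3, Pim1, Socs3, Jak1, Stat3, Il6st, Jak2, Lifr, Lif and Tyk2. Jak2 and Lifr could not be ordered, with a ratio of 1.03 (0.853 to 1.25). Lifr and Lif were next to each other with a ratio of 1.30 (1.04 to 1.64), and their order turned with the length, since Lif exceeded Lifr 1.67-fold per base of coding sequence and 2.21-fold per base of gene span. The middle of the order also turned. Per base of the longest coding transcript Jak1 was at 27.6 CPM per kb and Socs3 at 27.4. Per base of coding sequence Stat3 was at 45.5 and Jak1 at 39.2. Per base of gene span Il6st was at 2.16, Stat3 at 1.93 and Jak1 at 1.20. With the full counts divided by uncovered exonic length, Tyk2 was at 3.07 and Lif at 2.43. Pim3 and Pim1 took the 2 highest places under all 5 lengths. Counting error leaves out the spread between cultures, which was not measured here.

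**Figure D2:**
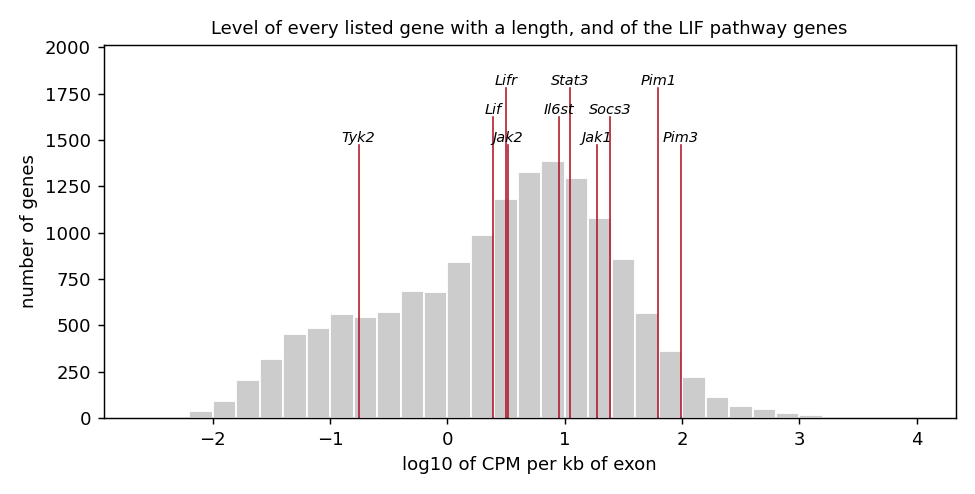
Number of listed genes in each bin of log10 CPM per kb of exon (grey bars, 15060 genes) with the levels of the 10 genes as red lines. Lif, Lifr and Jak2 lie in the middle of the distribution, from percentile 42.6 to 47.4, and Socs3, Pim1 and Pim3 lie from percentile 84.3 to 96.6.

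The receptor can also signal through the phosphatase Shp2 to the Erk kinases and through PI3 kinase, and genes of those arms were all present. All 11 reached CPM 1, as did 80.1% of all listed genes, and their median was 27.2 CPM per kb, against 3.78 for all genes. The Erk-activating kinase gene Map2k1 had 2169 counts and the adaptor gene Gab1 had 1979. Pik3r1, a regulatory subunit gene of PI3 kinase, was lowest with 243. Ptpn11, which encodes Shp2 itself, had 913 counts and was at 12.2 CPM per kb. These counts are of transcripts and do not measure the activity of the kinases.

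The 11 other genes that Stat3 is known to activate had levels from 0.514 to 108 CPM per kb, where the 10 genes of the route ran from 0.174 to 98.1. All reached CPM 1, as did 80.1% of all listed genes, and their median was 13.2 CPM per kb, against 3.78 for all genes. The survival gene Mcl1 had 3714 counts and was the highest of them per kb. Klf5, a transcription factor gene of the naive state, had 3485 counts, and Tfcp2l1, a main effector of LIF in these cells, had 5178. Myc was the lowest with 14 counts, or 0.514 CPM per kb (0.281 to 0.863), and no other annotated gene covered its exons. Fos, an immediate early gene, had 25 counts.

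**Figure D3:**
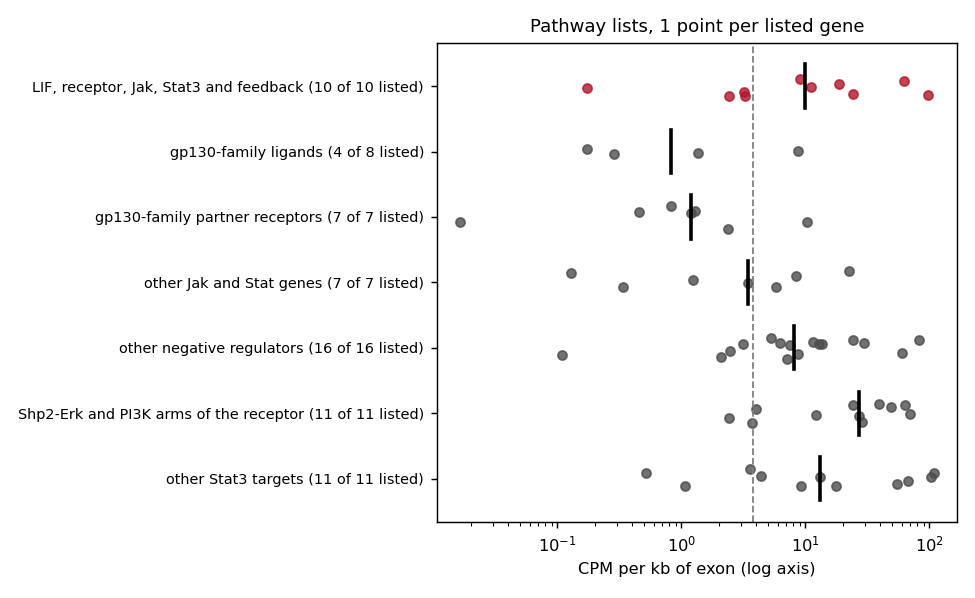
CPM per kb of exon (log axis) for each listed gene of the pathway lists, with the 10 genes of the route in red, list medians as black bars and the median of all genes, 3.78, as a dashed line. Points are spread vertically at random for visibility. The gp130-family ligands and partner receptors have medians of 0.828 and 1.18, below the dashed line, and the 10 genes have a median of 10.01.

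**Figure D4:**
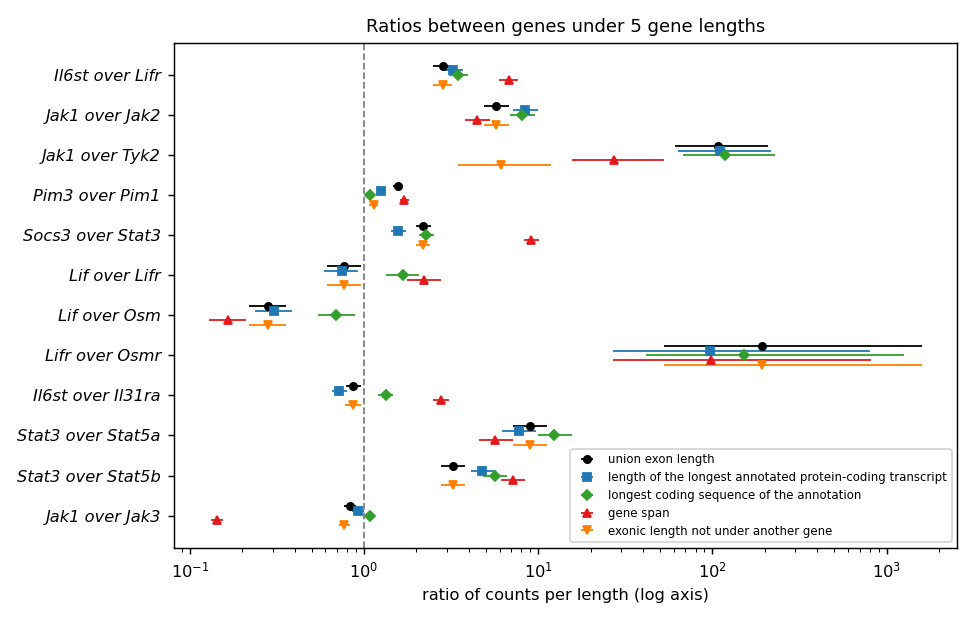
Ratios of counts per length (log axis) with 95% intervals from the counts, for 12 pairs of genes under 5 lengths. The first 6 pairs are within the route and the other 6 set a gene of the route against a relative. Lif over Lifr, Il6st over Il31ra and Jak1 over Jak3 cross the dashed line at 1 with the length used, and the other pairs stay on one side. Jak1 over Jak3 crosses it only per base of coding sequence, where the interval holds 1.

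The longest coding transcripts of these genes shared little exact sequence with annotated transcripts of other genes. Reads themselves were not examined, and near-identical copies and introns were not searched. None of the 90-base windows in the longest coding transcripts of Lif, Lifr, Il6st, Jak1, Jak2, Tyk2, Stat3, Socs3 and Pim3 occurred in a transcript of another gene, and 7.47% of those of Pim1 occurred in Gm26885. The cells carried embryonic stem cell transcripts, with all 6 marker genes at CPM 100 or more, against 15.5% of all listed genes. The median of these markers was 303 CPM per kb. Of 6 fibroblast markers, which would mark feeder cells, Thy1 had 267 counts, Col1a2 66 and Col1a1 58, and Col3a1, Dcn and Lum were not listed. Of 6 markers of other lineages, T had 121 counts, Sox17 81, Cdx2 50, Gata6 19 and Fgf5 1, and Ptprc was not listed. Their part in the levels above was not tested, and in bulk RNA fewer cells of a type and less RNA per cell cannot be told apart.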

How the data were processed

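Poly(A) RNA of 2 libraries of doxycycline-treated pSM44 cells was captured on oligo-dT beads, fragmented, ligated to adaptors and sequenced, per the labels' protocols. The submitters' processing notes name Subread 1.6.4 with featureCounts, HISAT2, Trimmomatic 0.38 and SAMtools, and the build GRCm38.p6. The authors deposited whole-number counts for 15127 protein-coding symbols in 1 column, from 1 to 117610, summing to 10017978. Not given in the sources used here are the strand setting, whether exons or whole genes were counted, and whether the column pools both libraries. The row order tracked counts divided by gene span (Spearman's rho 0.9999 over genes) more closely than counts divided by exonic length (0.920). If intronic reads were counted, values per kb of exon are too high for genes with long introns.

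Counts were scaled to CPM by the total and divided by union exon length in GENCODE M21 (GRCm38). Symbols matched directly for 14879 genes and by RefSeq synonym for 181, leaving 67 unmatched. Intervals are exact Poisson for counts, conditional binomial for ratios and Clopper-Pearson for shares. They are at 95% and hold counting error alone: without molecular identifiers, reads may be copies of the same molecule. Their half-width was 4.03% of the value for Pim3 and 61.5% for Tyk2. No test was possible with 1 value per gene. The genes, lists and tests were chosen with earlier results of these data known, and the pairs of a gene with a relative after their values were seen. Named genes were all 10 of the route and, per list, the 3 highest by CPM, the lowest and those not listed, with further ones chosen after their values were seen. Some genes that this rule names are not reported here. Protein sequences were not used here. The interval functions were tested on simulated counts. Python 3.11.15, numpy 2.4.6, pandas 2.3.3, scipy 1.17.1 and matplotlib 3.10.9 were used.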

Additional observations from a re-analysis of the deposited data

How the results depend on the processing

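The number of the 10 genes detected was 10 at a minimum CPM of 0.5 or 10 counts and 9 at a minimum CPM of 5. With the 20 genes of highest count left out of the total, CPM was 107.8 for Il6st, 147 for Jak1, 114 for Stat3, 75.8 for Socs3, 229 for Pim1 and 258 for Pim3, and the other 4 genes stayed inside their counting intervals. Per base of the longest coding transcript, Il6st over Lifr was 3.24, Jak1 over Jak2 8.43, Pim3 over Pim1 1.25, Socs3 over Stat3 1.57, Il6st over Il31ra 0.721, Stat3 over Stat5b 4.79 and Jak1 over Jak3 0.923. Per base of coding sequence, taken from GENCODE and added after the data were seen in place of the planned RefSeq proteins (not run), Il6st over Lifr was 3.47, Jak1 over Jak2 8.07, Pim3 over Pim1 1.08, Lif over Osm 0.694, Stat3 over Stat5a 12.4 and Stat3 over Stat5b 5.66. On that scale Lif over Lifr turned to 1.67, Il6st over Il31ra to 1.33 and Jak1 over Jak3 to 1.08, the last with an interval of 0.994 to 1.16. Per base of gene span, Il6st over Lifr was 6.77, Jak1 over Jak2 4.46, Jak1 over Tyk2 27.2, Pim3 over Pim1 1.71, Socs3 over Stat3 9.12, Lif over Osm 0.165, Stat3 over Stat5a 5.68, Stat3 over Stat5b 7.13 and Jak1 over Jak3 0.143. There Lif over Lifr turned to 2.21 and Il6st over Il31ra to 2.75. With the full counts divided by exonic length under no other gene, Jak1 over Tyk2 was 6.11 and Pim3 over Pim1 1.14. All of these differences come from the lengths alone, since the counts are the same.

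The log2 of a list's median CPM over that of all listed genes was 2.21 for the 10 genes, and 1.40 per kb of exon. It was -3.56 for gp130-family ligands and -2.31 for partner receptors, and per kb of exon -2.19 and -1.67. With every unlisted annotated gene at 0, which lowers the median of all genes, it was 5.03 for the 10 genes, -4.70 for ligands, 2.87 for other Jak and Stat genes, 4.16 for negative regulators, 5.25 for the Shp2-Erk and PI3K arms and 4.07 for Stat3 targets, and it turned to 0.51 for partner receptors. Among genes with at most 0.1 of exonic length under another gene it was 0.72 for other Jak and Stat genes, against 0.05 for all of them, and 3.16 for Stat3 targets, against 1.25. No paired analysis was possible because the labels give 1 group and the counts have 1 column, which also left no replicate to leave out. Depth limits the genes with few counts, among them Tyk2 with 12.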
